A study of Mus musculus with 4 samples.

Results

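The DNA replication and mitosis genes examined here were 44 named genes, 23 that act in mitosis and 21 that act in DNA replication, chosen by name and all found among the 32285 genes counted. They were read cell by cell in mouse bone marrow that had been sorted as CD45.2+Kit+ at 10 weeks after transplantation, with RNA and surface antibodies counted in the same cells. Donor and recipient blood cells can be told apart by variants of the leukocyte protein CD45, of which CD45.2 is one, and Kit is a receptor of blood stem and progenitor cells. Beside the control library there was 1 library each of Mll3SI, Mll4SI and Mll3/4SI (4 groups), and all shared the transplantation, the time point and the sort. MLL3 and MLL4, encoded by Kmt2c and Kmt2d, are histone methyltransferases. The labels do not spell out SI, do not say how the alleles were made or in which cells they act, and name no animal, sex, batch or date. The question put to these genes was whether DNA replication and mitosis transcripts differed between the libraries within each class of cells.

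A dividing cell copies its DNA in S phase and separates the copies in mitosis, and most genes that serve these steps are transcribed in waves. E2F factors drive the wave before and in S phase, which includes the subunits of the MCM helicase, the sliding clamp Pcna and enzymes that make nucleotides. A later wave includes the cyclins Ccnb1 and Ccnb2, their kinase Cdk1, and genes of the spindle, the kinetochore and the anaphase-promoting complex. In bone marrow most long-term stem cells are quiescent, progenitors divide often, and granulocytes leave the cycle as they mature.

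Because the members are known for this timing, the stretch before their start sites was read for the letters of motifs associated with each wave, as a description of the genes and not of these libraries. Promoters of 37 of the 44 members were found in the RefSeq table (build GRCm38.p6), as windows of 300 bases with 250 before the start and 50 after it. Searched on both strands, TTTGAA or TTTAAA (the cell-cycle homology region, CHR) was present in 17 of 19 mitosis genes (89.5%), in 6 of 18 DNA replication genes (33.3%) and in 30.6% of the 27025 genes in the table. CCAAT, the box bound by NF-Y, was present in 17 of 19 mitosis genes, in 12 of 18 DNA replication genes (66.7%) and in 41.1% of all genes. TTCGCGC or TTGGCGC, an E2F motif, was present in 4 of 19 mitosis genes (21.1%), in 7 of 18 DNA replication genes (38.9%) and in 4.47% of all genes. CHR and CCAAT stood together in 16 of 19 mitosis genes, in 5 of 18 DNA replication genes and in 13.4% of all genes. The 250 bases upstream of 4 members are shown because they carry these motifs in different mixes and because their transcripts return in the results: Ccnb1 at chr13:100786487-100786736 (minus strand), Ube2c at chr2:164769679-164769928 (plus strand), Mcm6 at chr1:128359706-128359955 (minus strand) and Pcna at chr2:132253181-132253430 (minus strand). Starts here are RefSeq's, and the annotation whose gene spans are printed later starts some genes farther upstream, so that 84, 31 and 134 of the 250 bases of Ccnb1, Ube2c and Pcna lie inside the gene by that annotation and 0 of those of Mcm6. Each is written 5′ to 3′ along its gene, and capitals mark CHR, CCAAT and E2F letters on either strand.
Ccnb1: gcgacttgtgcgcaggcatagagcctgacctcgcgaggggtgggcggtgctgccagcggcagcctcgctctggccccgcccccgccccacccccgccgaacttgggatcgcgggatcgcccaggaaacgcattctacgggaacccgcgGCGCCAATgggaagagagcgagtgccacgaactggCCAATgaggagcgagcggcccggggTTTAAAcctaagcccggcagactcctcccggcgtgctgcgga
Ube2c: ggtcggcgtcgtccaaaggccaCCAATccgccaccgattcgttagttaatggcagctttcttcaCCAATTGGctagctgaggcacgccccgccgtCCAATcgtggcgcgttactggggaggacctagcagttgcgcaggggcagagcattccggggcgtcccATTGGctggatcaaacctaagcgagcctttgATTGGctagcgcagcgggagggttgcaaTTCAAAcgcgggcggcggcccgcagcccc
Mcm6: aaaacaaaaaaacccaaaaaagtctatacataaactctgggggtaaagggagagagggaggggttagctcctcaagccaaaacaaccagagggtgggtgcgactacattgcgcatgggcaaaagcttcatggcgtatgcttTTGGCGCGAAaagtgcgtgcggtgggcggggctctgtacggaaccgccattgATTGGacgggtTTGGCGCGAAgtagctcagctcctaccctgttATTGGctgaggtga
Pcna: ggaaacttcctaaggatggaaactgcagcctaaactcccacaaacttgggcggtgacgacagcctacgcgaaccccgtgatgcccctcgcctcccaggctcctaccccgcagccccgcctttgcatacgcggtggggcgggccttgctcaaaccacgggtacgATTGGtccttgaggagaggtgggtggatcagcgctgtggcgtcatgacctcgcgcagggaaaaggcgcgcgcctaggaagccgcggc
In Ccnb1 the CHR letters begin 42 bases before the start, and E2F letters overlap a CCAAT box farther from it. Ube2c, the ubiquitin-conjugating enzyme of the anaphase-promoting complex, holds 6 CCAAT copies, of which a pair overlaps, and CHR letters that begin 29 bases before the start. Mcm6 holds 5 E2F matches in the 300-base window, 4 of them as overlapping pairs in the stretch shown. Pcna holds 1 CCAAT copy and no CHR or E2F letters by these spellings in this window.

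The libraries held 7524 to 11678 cell barcodes with 140546094 to 177753607 gene UMIs (unique molecular identifiers, each standing for a captured transcript), and 6743 control, 8023 Mll3SI, 10186 Mll4SI and 6755 Mll3/4SI cells were kept. Pairs of libraries shared 16 to 29 cell barcodes, 0.171% to 0.355% of the library named first in each pair. Kit, whose protein was sorted for, stood at 100.3 to 112 UMIs per 1000000 gene UMIs (CPM). In control, Mll3SI, Mll4SI and Mll3/4SI, an order kept for all values that follow, Kmt2c stood at 129.5, 110.2, 148 and 123 CPM and Kmt2d at 41.5, 37.95, 34.98 and 33.3 CPM, which does not check the labels, since they do not say whether SI alters the transcripts. Xist, which is transcribed from the inactive X chromosome of females, stood at 0.0315, 0.194, 1149 and 1358 CPM. Each difference of Mll4SI or Mll3/4SI from control therefore cannot be told apart from a difference in sex. With 1 library per group there is no spread between animals and no p-value was computed. Intervals in brackets are exact 95% intervals that cover counting error only. Those of levels and of ratios of levels treat UMIs as independent, so they leave out the spread between cells and are too narrow for it. Those of shares of cells count cells.

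Cells were put into classes by clustering without the members, without the other gene lists and without the cell type markers, and clusters were named by their markers. HSC/MPP-like cells (clusters 7 and 11, named by RNA markers for stem cells and multipotent progenitors of the blood) numbered 908, 879, 878 and 309. Cluster 7 held 581, 562, 616 and 193 of them. Their 20 HSC/MPP markers summed to between 3222 and 3800.3 CPM, and none was at 0 in any library. The 14 early granulocyte markers summed to 12949, 13303, 15816 and 13465 CPM, above the HSC/MPP markers in every library and highest in Mll4SI. The 15 late granulocyte markers summed to 1745, 1359, 7272 and 1388 CPM in the same cells. HSC/MPP-like cells of Mll4SI thus carried more RNA of both marker lists than the others, and its part in the results was not tested. The late granulocyte list was highest in Mll4SI in other classes too. It summed to 1540, 1758, 6839 and 1387 CPM in monocyte-like cells and 4907, 3047, 19679 and 12028 CPM in B-lymphoid-like cells. In basophil/mast-like cells it summed to 3283, 1945, 12531 and 1678 CPM. Cluster 14, with 663 Mll3/4SI cells and 2 Mll4SI cells, had 10 HSC/MPP and 6 basophil/mast markers and stayed unnamed, as did cluster 9 with 1359 Mll3/4SI cells. The 5 unnamed clusters held 4.86%, 4.599%, 2.75% and 32.5% of the cells.

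Summed over the 23 mitosis genes, the level in control cells was 2118 CPM in early granulocyte-like, 2187 CPM in basophil/mast-like, 2471 CPM in monocyte-like, 2774 CPM in HSC/MPP-like and 3148 CPM in erythroid-like cells. Late granulocyte-like cells reached 6511 CPM and B-lymphoid-like cells 7182 CPM. The plan had named late granulocyte-like cells among those expected to hold least, which for mitosis they did not. This class is broad, and its cluster 6 had 5 late and 2 early granulocyte markers, with Fcnb and Cebpe among its top genes. The 21 DNA replication genes spread less, from 2157 CPM in late granulocyte-like and 2167 CPM in basophil/mast-like cells to 3153 CPM in monocyte-like cells, with B-lymphoid-like cells apart at 5218 CPM. As UMI counts, mitosis transcripts outnumbered DNA replication transcripts in late granulocyte-like cells of every library, and the reverse held in early granulocyte-like and monocyte-like cells of every library. These sums are shares of each class total, in which fewer dividing cells and less RNA per dividing cell cannot be told apart.

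**Figure D1:**
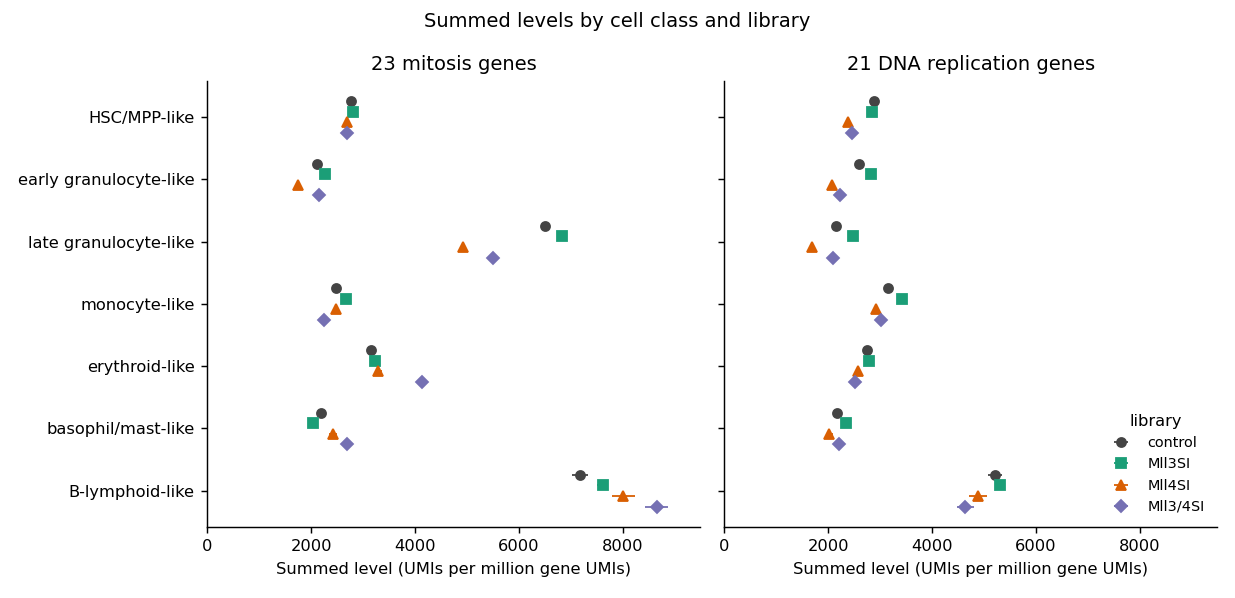
Summed level of the 23 mitosis genes (left) and the 21 DNA replication genes (right), in CPM, by cell class; each point is 1 library and bars are exact 95% Poisson intervals, often smaller than the point. In HSC/MPP-like cells the 4 mitosis points lie between 2687 and 2800.1 CPM, while the DNA replication points of Mll4SI and Mll3/4SI lie below those of control and Mll3SI.

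In HSC/MPP-like cells the summed DNA replication genes were lower in Mll4SI and Mll3/4SI than in control, and the summed mitosis genes were nearly level. Shares of cells with mitosis UMIs, given below, were lower in both libraries at a threshold of 3 UMIs. The summed DNA replication level was 2881 CPM in control [2859 to 2904], 2850.03 CPM in Mll3SI [2824 to 2876], 2385 CPM in Mll4SI [2363 to 2406] and 2465 CPM in Mll3/4SI [2431 to 2498]. Mll4SI and Mll3/4SI formed a lower pair that did not overlap the other pair within counting error of UMIs. The spread between cells is not in these intervals. As log2 ratios to control, a library that all 3 comparisons share, these levels gave -0.02 [-0.03 to 0.0017], -0.27 [-0.29 to -0.26] and -0.23 [-0.25 to -0.20]. The summed mitosis level was 2774, 2800.1, 2687 and 2697 CPM, at log2 ratios to control of 0.01 [-0.0043 to 0.03], -0.05 [-0.06 to -0.03] and -0.04 [-0.06 to -0.02]. Over the other ways of processing tried, the DNA replication ratio stayed between -0.28 and -0.23 in Mll4SI and between -0.35 and -0.18 in Mll3/4SI, while the mitosis ratio took either sign in each library, between -0.20 and 0.22, -0.16 and 0.18 and -0.37 and 0.18.

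The same order of pairs held in both clusters of the class. In cluster 7 the summed DNA replication level was 2956, 2940.3, 2401 and 2537 CPM. In cluster 11, which had 17 HSC/MPP markers against 7 in cluster 7, it was 2685, 2598, 2334 and 2268 CPM. Mll4SI and Mll3/4SI were the lowest libraries in each cluster. The mitosis level was 2566, 2656, 2345 and 2475 CPM in cluster 7 and 3318, 3203, 3777 and 3300.3 CPM in cluster 11, so that Mll4SI was the lowest library in the former and the highest in the latter.

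Gene by gene, 20 of the 21 DNA replication genes passed a minimum mean of 10 CPM over the 4 libraries, and Ccne1 (8.16, 7.59, 8.68 and 9.23 CPM) did not. Changes of single genes are log2 ratios of CPM + 1, and a ratio of at least 0.5 in size (1.41-fold) is called past the fold. Brackets beside single-gene ratios are intervals of the ratio without the added 1, so they need not be centred on the value given. Of the 20, 15, 20 and 18 lay below 0, with medians of -0.06, -0.26 and -0.17. Over all 8600 genes that passed the same minimum the medians were 0.02, -0.02 and -0.05, and 44.3%, 56.2% and 62.3% of them lay below 0. Pcna in Mll4SI was past the fold, lower, as were 1.7% of all genes there. No DNA replication gene was past it higher in Mll4SI, where 1.91% of all genes were. None was past it in Mll3SI (0.488% of all genes higher and 0.733% lower) or in Mll3/4SI (1.3% higher and 1.13% lower).

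Among the genes that load and start the replicative helicase, Mcm2, a subunit of the MCM ring, stood at 107, 117, 85.98 and 79.3 CPM, at log2 ratios to control of 0.12, -0.32 and -0.43. Cdc6, which loads the ring on origins, stood at 33.01, 30.04, 25.8 and 23.4 CPM, at ratios to control of -0.13 [-0.31 to 0.03], -0.34 [-0.52 to -0.19] and -0.48 [-0.73 to -0.27]. In both genes Mll4SI and Mll3/4SI were the lowest libraries. Cdt1, the partner of Cdc6 in loading, gave -0.04, -0.25 and -0.17, and Gins2, part of the active helicase, gave -0.02, -0.12 and -0.24. The other subunits of the ring differed among themselves: in Mll4SI and Mll3/4SI, Mcm3 gave -0.22 and -0.17, Mcm5 -0.28 and -0.14, and Mcm7 -0.20 and -0.16. Mcm6, whose upstream stretch with its E2F letters is shown above, was nearly level at 178, 171, 175 and 186 CPM, at ratios to control in Mll4SI and Mll3/4SI of -0.02 [-0.09 to 0.04] and 0.07 [-0.02 to 0.15]. Mcm4 gave, in the same order, -0.11 and -0.0013. The intervals of Mcm2, -0.32 [-0.41 to -0.23] and -0.43 [-0.56 to -0.31], did not overlap those of Mcm6 in either library.

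Pcna (ENSMUSG00000027342, GRCm38 chromosome 2, 132249162 to 132253314), the clamp that holds polymerases on DNA, stood at 316, 293, 222 and 246 CPM. Its log2 ratios were -0.11 [-0.16 to -0.05], -0.51 [-0.56 to -0.45] and -0.36 [-0.43 to -0.29], the lowest of the 20 in Mll4SI. Pclaf, a protein that binds the clamp, stood at 276, 253, 217 and 244 CPM and gave -0.13, -0.34 and -0.18. Control was the highest library for both genes and Mll4SI the lowest. Clspn, an adaptor of the replication checkpoint, gave -0.12, -0.28 and -0.16.

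Among the enzymes of nucleotide supply, Dut, which hydrolyses dUTP, stood at 619, 688, 499.9 and 495 CPM. It gave 0.15 [0.12 to 0.19], -0.31 [-0.35 to -0.27] and -0.32 [-0.37 to -0.27], so that Mll3SI lay above control and the other two libraries below it. Rrm2, the regulated subunit of ribonucleotide reductase, stood at 82.4, 84.996, 66.8 and 64.2 CPM and gave 0.04, -0.30 and -0.35. Rrm1, its partner, gave -0.11, -0.22 and -0.17, and Tyms, which makes thymidylate, gave -0.11, -0.16 and -0.16.

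Uhrf1, which guides DNA methylation of new strands, stood at 105, 94.6, 77.8 and 78.5 CPM and gave -0.15 [-0.25 to -0.06], -0.43 [-0.53 to -0.34] and -0.42 [-0.55 to -0.30]. Slbp, which binds histone mRNA, gave -0.06, -0.17 and -0.19. The regulators of entry into S phase followed less closely. Ccne2, a cyclin of that step, stood at 25.2, 24.5, 19.2 and 25.9 CPM, with Mll4SI below the other libraries at -0.37 [-0.58 to -0.20] and Mll3/4SI at 0.04. E2f1, a factor of the S-phase wave, stood at 35.8, 28.4, 33.3 and 31.9 CPM and was lowest in Mll3SI, at -0.32 [-0.50 to -0.17].

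**Figure D2:**
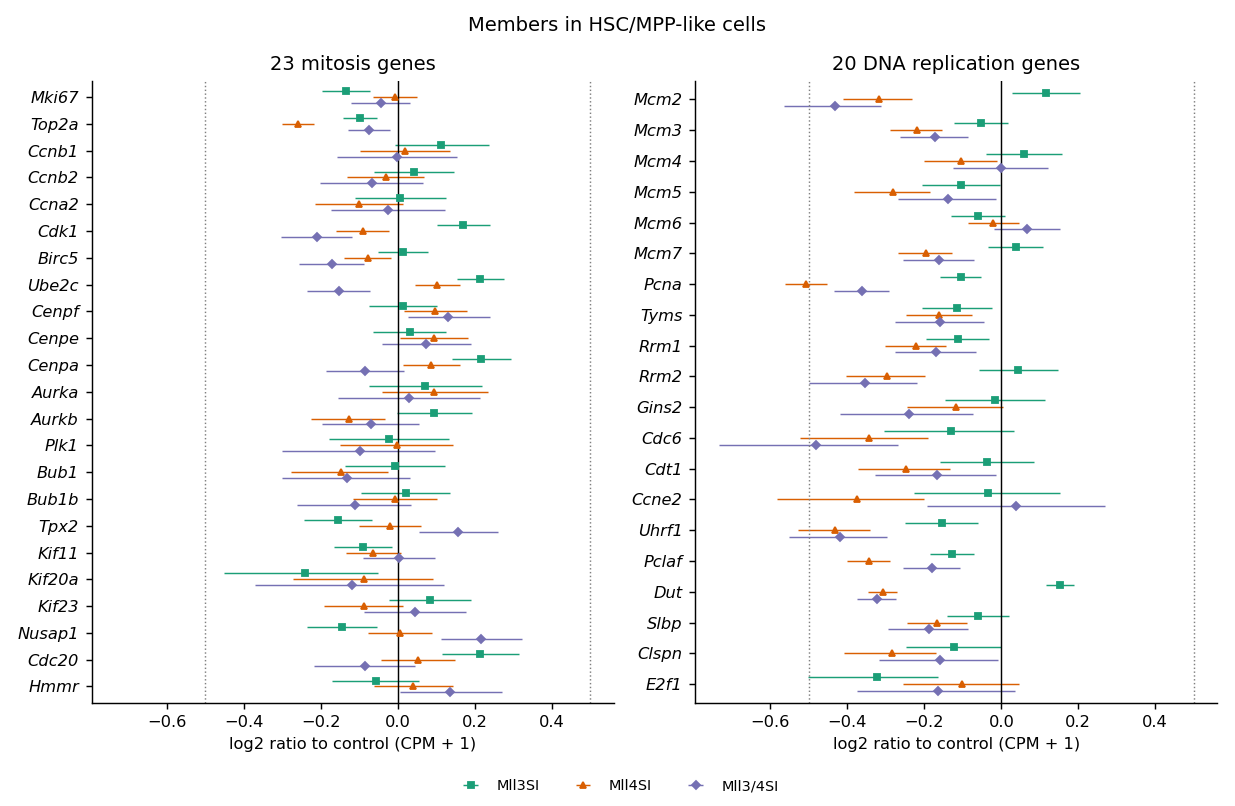
Log2 ratio to control of CPM + 1 in HSC/MPP-like cells for the mitosis genes and the DNA replication genes; points are the Mll3SI, Mll4SI and Mll3/4SI libraries and bars are exact 95% counting intervals of the ratio without the added 1. The mitosis points scatter on both sides of 0, and of the 20 DNA replication genes that passed the minimum all Mll4SI points lie below 0, with Pcna at -0.51.

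All 23 mitosis genes passed the minimum of 10 CPM in HSC/MPP-like cells, none was past the fold in any library, and the medians were 0.01, -0.01 and -0.07. Below 0 lay 9, 14 and 15 of the 23, near the 44.3%, 56.2% and 62.3% of all genes. Top2a (ENSMUSG00000020914, GRCm38 chromosome 11, 98992943 to 99024189), the topoisomerase that untangles chromosomes, stood at 476, 445, 398 and 452 CPM. Its Mll4SI ratio of -0.26 [-0.30 to -0.22] was the lowest mitosis value of that library. Mki67, the proliferation antigen that coats mitotic chromosomes, stood at 237, 216, 236 and 229.99 CPM, and Mll3SI was its lowest library at -0.13 [-0.20 to -0.07].

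Genes of mitotic entry and of the spindle went higher and lower in the same library. In Mll3/4SI, Nusap1, which bundles spindle microtubules, stood at 128 CPM against 111 CPM in control (0.22 [0.11 to 0.32]). Tpx2, which helps assemble the spindle, stood at 134 against 119.96 CPM (0.16 [0.06 to 0.26]). Cdk1, the kinase of mitotic entry, stood there at 151 against 175 CPM (-0.21 [-0.30 to -0.12]). In Mll3SI these 3 genes lay on the other side of control, at -0.14, -0.15 and 0.17.

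Of the genes of mitotic exit and the centromere, Ube2c, Cdc20 and Cenpa were highest in Mll3SI. Ube2c stood at 216, 251, 232 and 194 CPM, at ratios to control of 0.21 [0.15 to 0.28], 0.10 [0.04 to 0.16] and -0.15 [-0.24 to -0.07]. Cdc20, an activator of the anaphase-promoting complex, gave 0.21, 0.05 and -0.09, and Cenpa, the histone of centromeres, gave 0.22, 0.09 and -0.08. Ccnb1, a target of that complex, was nearly level at 56.4, 61.1, 57.1 and 56.3 CPM. Kif20a, a kinesin of late mitosis, was the mitosis member counted with the fewest UMIs, at 24.7, 20.7, 23.2 and 22.7 CPM, and its Mll3SI ratio was -0.24 [-0.45 to -0.05]. The other mitosis genes were the cyclins Ccnb2 and Ccna2, the kinases Aurka, Aurkb, Plk1, Bub1 and Bub1b, the survivin gene Birc5, the kinetochore genes Cenpe and Cenpf, the kinesins Kif11 and Kif23, and Hmmr, a spindle protein. Their ratios lay between -0.17 and 0.14 over the 3 libraries.

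Lists of other genes of the same steps were set beside the members. Of 60 other DNA replication genes 59 passed the minimum, and below 0 lay 41, 54 and 55, with medians of -0.04, -0.18 and -0.14. Dck, a kinase that salvages nucleosides, stood at 33.1, 32.9, 21.5 and 26.7 CPM and was past the fold in Mll4SI (-0.60 [-0.80 to -0.45]). Of 57 other mitosis genes 54 passed, with 30, 32 and 35 below 0 and medians of -0.01, -0.01 and -0.06. Among them Pttg1, the securin that guards sister chromatids until anaphase, stood at 53.1, 105, 96.5 and 107 CPM, at ratios to control of 0.96, 0.85 and 0.99. Control stood below the other libraries for Pttg1. Stmn1, which destabilises microtubules, stood at 1588, 1597, 1006 and 1126 CPM and was past the fold in Mll4SI (-0.66 [-0.68 to -0.63]). Of 45 transcription and checkpoint regulators 38 passed, with 15, 29 and 29 below 0 and medians of 0.02, -0.09 and -0.10. Ccnd1, a cyclin of early G1 phase, stood at 31.03, 20.3, 7.83 and 14.02 CPM, past the fold in each library at -0.59, -1.86 and -1.09.

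Each library held cells that carried 1 of 2 hashtag antibodies, and these sets were compared within HSC/MPP-like cells. The summed DNA replication level of the Hashtag1 and the Hashtag2 set was 2854 and 2914 CPM in control, 2874 and 2850.1 CPM in Mll3SI, 2426 and 2409 CPM in Mll4SI, and 2456 and 2470.2 CPM in Mll3/4SI. All 4 sets of Mll4SI and Mll3/4SI lay below all 4 sets of control and Mll3SI. Hashtag2 against Hashtag1 gave log2 ratios of 0.03, -0.01, -0.01 and 0.01. For the mitosis genes the sets stood at 2607 and 2928 CPM in control, 3027 and 2548 CPM in Mll3SI, 2558 and 2624 CPM in Mll4SI, and 2954 and 2259.6 CPM in Mll3/4SI, where Hashtag2 against Hashtag1 gave 0.17, -0.25, 0.04 and -0.39. For mitosis the sets of a library thus lay farther apart than the libraries themselves did in control, Mll3SI and Mll3/4SI. The smallest set, Hashtag2 of Mll3/4SI, held 95 cells. Since the labels do not say what the hashtags mark, the sets are not used as replicates.

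**Figure D3:**
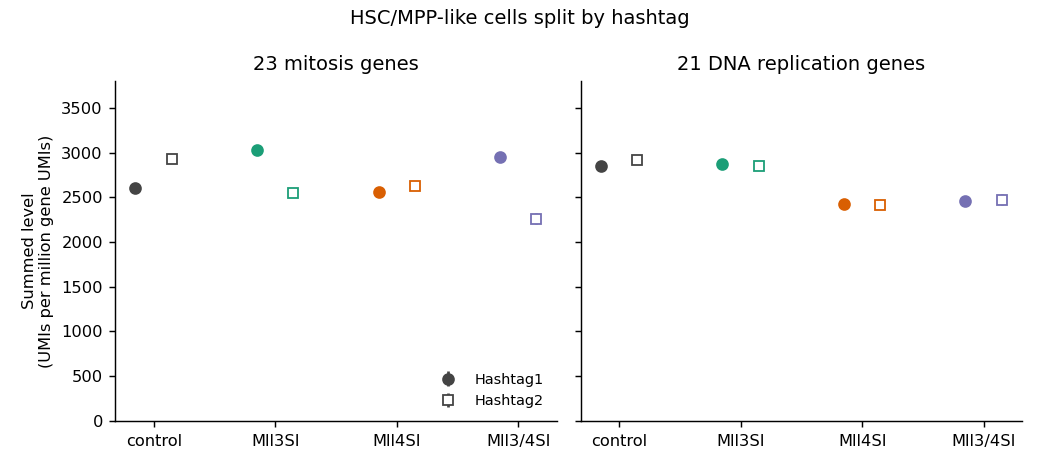
Summed level of the mitosis genes and the DNA replication genes in HSC/MPP-like cells, in CPM, for the cells with Hashtag1 and with Hashtag2 in each library, with exact 95% Poisson intervals. The 4 DNA replication values of Mll4SI and Mll3/4SI lie between 2409 and 2470.2 CPM and those of control and Mll3SI between 2850.1 and 2914 CPM, while the mitosis values of the libraries interleave.

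The sums do not say how many cells took part, so each cell was thinned to 3000 gene UMIs and its member UMIs were counted. At least 5 DNA replication UMIs were held by 71.9% [68.8 to 74.8], 68.8% [65.6 to 71.8], 61.6% [58.2 to 64.8] and 60.3% [54.5 to 65.8] of HSC/MPP-like cells, out of 903, 874, 874 and 307 cells. Divided by the control share these gave 0.957 [0.899 to 1.02], 0.856 [0.80004 to 0.916] and 0.838 [0.753 to 0.925]. Unthinned, the shares were 97.2%, 94.1%, 96.8% and 96.8%, at median depths of 23228, 17665, 22054 and 26077 UMIs. The median thinned count was 8, 7, 6 and 6 UMIs and the 90th percentile 16, 16, 14 and 14, so Mll4SI and Mll3/4SI were lower at the middle and at the top of the distribution. Cells at 4 or 5 UMIs, next to the threshold, numbered 130, 124, 161 and 37.

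At least 3 mitosis UMIs were held by 58.1% [54.8 to 61.4], 54.5% [51.1 to 57.8], 50.5% [47.1 to 53.8] and 49.5% [43.8 to 55.2] of HSC/MPP-like cells, at ratios to control of 0.937 [0.861 to 1.02], 0.868 [0.795 to 0.947] and 0.852 [0.745 to 0.964]. Unthinned these shares were 89.3%, 84.98%, 84.4% and 82.8%, and cells at 2 or 3 UMIs numbered 156, 147, 122 and 55. The median thinned mitosis count was 4, 3, 3 and 2 UMIs and the 90th percentile 19, 20, 18 and 17. Mitosis counts of Mll4SI and Mll3/4SI were thus also below control at the middle and at the top. At a threshold of 10 UMIs, set after the distributions had been seen, the mitosis shares were 28.6%, 27.1%, 28.3% and 25.4%, and the ratios of 0.949 [0.814 to 1.11], 0.989 [0.851 to 1.15] and 0.889 [0.705 to 1.105] had intervals that included 1. The DNA replication shares at 10 UMIs were 36.99%, 36.4%, 28.3% and 29.97%, at ratios to control of 0.984 [0.868 to 1.11], 0.764 [0.665 to 0.877] and 0.8102 [0.661 to 0.979]. The DNA replication intervals of Mll4SI and Mll3/4SI thus lay below 1 at both thresholds. Their mitosis intervals lay below 1 at 3 UMIs and included 1 at 10 UMIs. At 2 UMIs the mitosis ratios of Mll4SI and Mll3/4SI were 0.864 and 0.892, and at 5 UMIs 0.865 and 0.848. With 3 UMIs required they were 0.916 and 0.918 at 2000 UMIs per cell, and 0.882 and 0.862 at 5000. The mitosis ratios at 3 UMIs were close to the DNA replication ratios at 5 UMIs, 0.856 and 0.838, in these HSC/MPP-like cells. In T/NK-like cells, which are set beside these as another cell type, though whether they divide or hold free RNA was not tested, at least 3 mitosis UMIs were held by 2 of 24 cells in control, 0 of 19 in Mll4SI (exact upper limit 17.6%) and 7 of 46 in Mll3/4SI, at median depths of 5694, 5539.5 and 8314 UMIs. At least 5 DNA replication UMIs were held there by 2, 1 and 12 cells. Mll3SI had 11 T/NK-like cells and is not given.

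**Figure D4:**
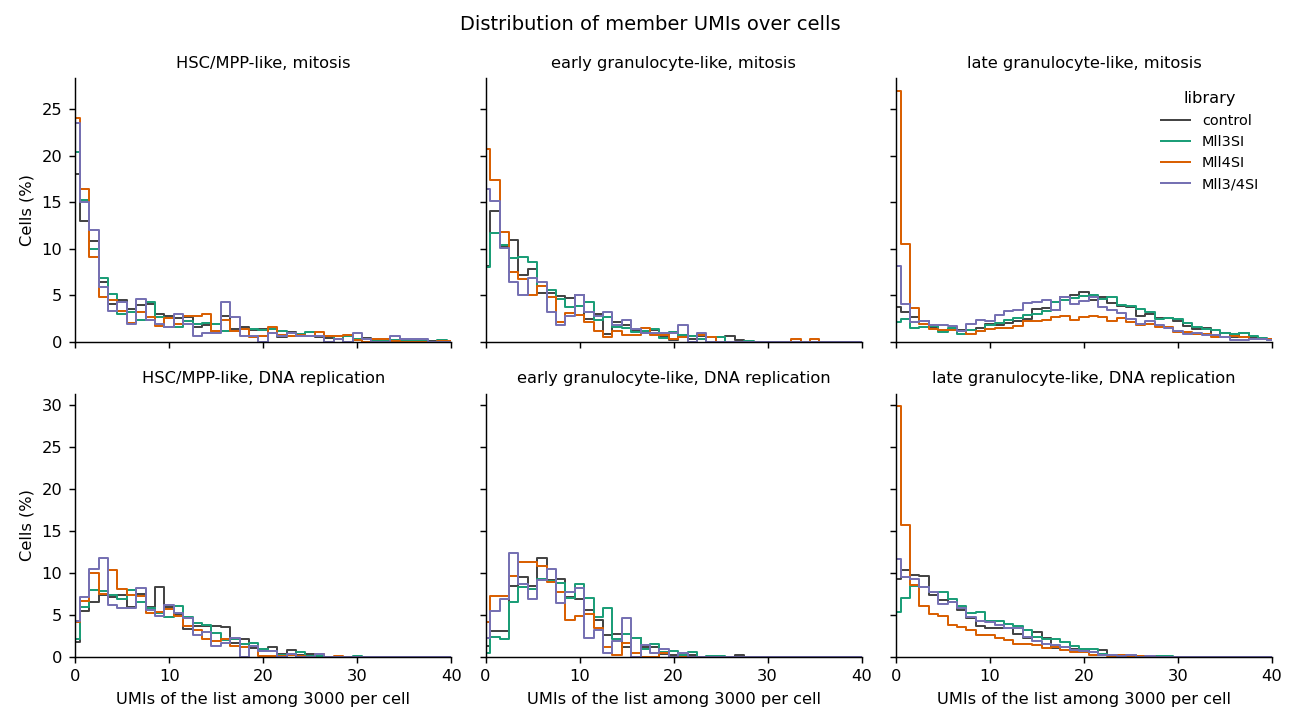
Share of cells (vertical axis, percent) by their number of mitosis UMIs and of DNA replication UMIs (horizontal axis, ending at 40) after thinning to 3000 gene UMIs per cell, for the 4 libraries. The HSC/MPP-like cells of every library are most frequent at 0 mitosis UMIs with a long tail, and 26.9% of late granulocyte-like Mll4SI cells hold none.

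How far the same cells held both lists depended on the threshold. At 3 mitosis and 5 DNA replication UMIs, 44.9%, 41.6%, 33.9% and 34.5% of HSC/MPP-like cells passed for both, which was 77.1%, 76.5%, 67.1% and 69.7% of those that passed for mitosis. At 10 UMIs of each list, a threshold set after the distributions had been seen, 21.2% of control HSC/MPP-like cells passed for mitosis alone, 29.6% for DNA replication alone, 7.42% for both and 41.9% for neither. The same shares were 19.9%, 29.2%, 7.21% and 43.7% in Mll3SI. Mll4SI had 22.3%, 22.3%, 5.95% and 49.4%, and Mll3/4SI had 19.9%, 24.4%, 5.54% and 50.2%. The replication-only share of Mll4SI (interval 19.6 to 25.2) lay below that of control (26.6 to 32.7), and the intervals of the mitosis-only shares overlapped in all 4 libraries. Cells of these states differed in depth before thinning, and in control the median was 30511 UMIs in mitosis-only, 24492 in replication-only and 18452 in cells with neither.

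The members were then placed along this difference between cells. HSC/MPP-like cells were ranked by the share of each list in their gene UMIs, with the member in question left out. For each member, the level in the top quartile by mitosis share was set against that in the top quartile by replication share. Taking the median over the 4 libraries, all 23 mitosis genes were higher in the mitosis-rich cells and all 21 DNA replication genes in the replication-rich cells, and the same held in early granulocyte-like cells. On the mitosis side Ube2c (median log2 ratio 3.69), Cenpa (3.65) and Ccnb1 (2.86) lay far out, and Top2a (0.71) and Aurkb (0.75), a kinase of chromosome segregation, lay nearest to 0. On the other side Ccne1 (-3.01), Ccne2 (-2.66) and E2f1 (-2.66), which act at entry into S phase, lay far out, and Rrm1 (-0.46) lay nearest to 0. The spread over the 4 libraries differed between genes: Ube2c ranged from 3.65 to 3.91, Ccnb1 from 2.77 to 3.46, Ccne1 from -3.86 to -2.73, E2f1 from -2.99 to -2.27 and Rrm1 from -0.54 to -0.32. Mll3/4SI lay farthest from 0 for the first 4 of these. In early granulocyte-like cells Ube2c and Cenpa again lay farthest out on the mitosis side and E2f1, Ccne1 and Ccne2 on the other, with Ube2c at 2.98 and E2f1 at -2.48.

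**Figure D5:**
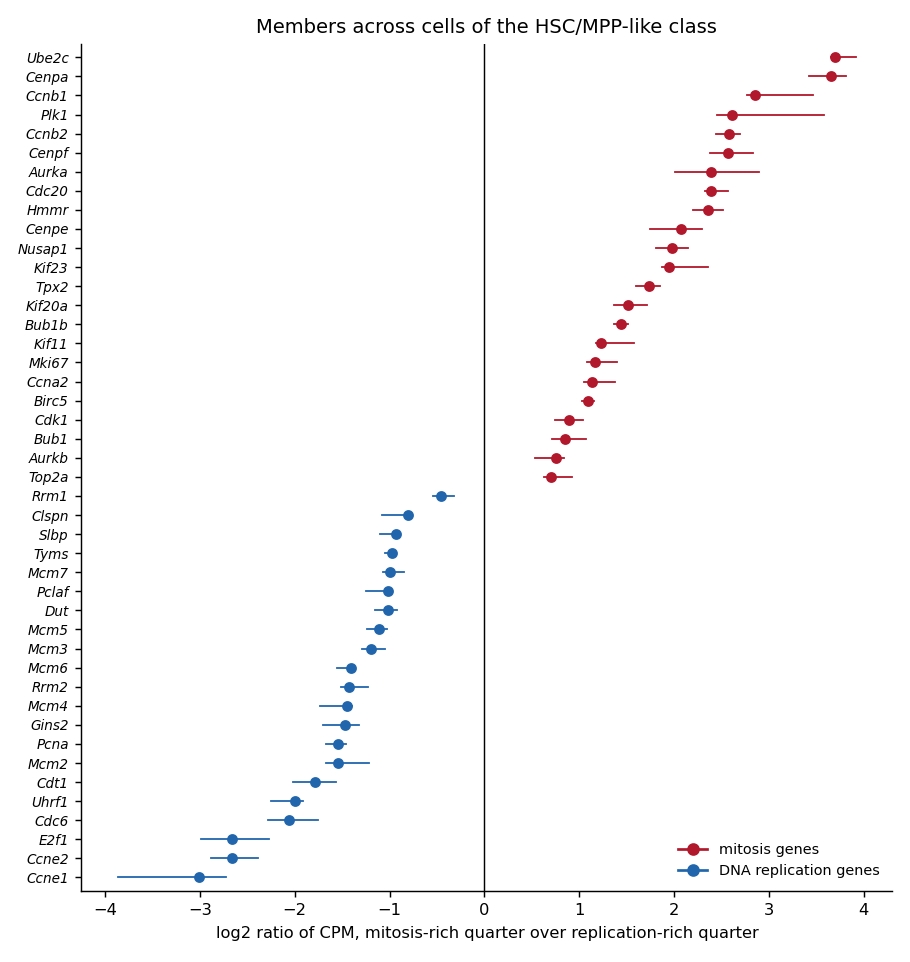
Log2 ratio of each member's level in HSC/MPP-like cells between the top quartile by mitosis share of gene UMIs and that by DNA replication share. The member itself was left out of the ranking. Points are medians over the 4 libraries and lines run from the lowest to the highest library. Ube2c and Cenpa lie at the mitosis end, with medians of 3.69 and 3.65, and Ccne1 lies at the replication end at -3.01.

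The surface antibodies of HSC/MPP-like cells with at least 3 mitosis UMIs were set against those of cells with none, as differences of median centred log-ratios. CD48, which is low on long-term stem cells, was higher in the cells with mitosis UMIs by 0.39, 0.55, 0.32 and 0.29. CD117, the Kit protein, was higher by 0.25, 0.19, 0.16 and 0.13. CD201, a stem cell marker, differed by -0.30, -0.55, -0.26 and -0.53, CD135, a marker of lymphoid-primed progenitors, by -0.28, -0.20, -0.32 and -0.36, and CD150, a stem cell marker, by -0.33, -0.19, -0.03 and 0.03. These 3 antibodies rested on medians of 1 to 5 UMIs, and the raw CD135 median was the same in both sets of cells in every library, so no difference is read from them. Sca1 differed by -0.24, -0.41, -0.09 and -0.27. Between the quartiles of cells with the most and the least CD48, the summed mitosis level gave log2 ratios of 0.63, 0.50, 1.08 and 0.81 and the DNA replication level gave 0.20, 0.17, 0.20 and 0.02. In every library these outer quartiles of CD48 thus differed more in the mitosis genes than in the DNA replication genes. The rise was not steady. From the lowest to the next quartile the mitosis level went from 2357 to 2204 CPM in control, 2505 to 2212 CPM in Mll3SI and 2264 to 1723 CPM in Mll3/4SI. It rose from 1766 to 2127 CPM in Mll4SI. Between outer quartiles the mitosis ratios were -0.16, 0.04, 0.17 and 0.52 for CD150 and 0.27, 0.03, -0.07 and -0.18 for Sca1. Between cells with at least 3 mitosis UMIs and with none, CD34 differed by 0.33, 0.29, 0.23 and 0.00046. CD16_32 differed by 0.31, 0.87, -0.05 and 0.61. In control the raw medians of these sets were 1599 and 982 UMIs for CD48 and 397 and 280 UMIs for CD117. For CD150 and for CD201 they were 2 and 2 UMIs. These raw medians do not mark the class as long-term stem cells, and its name rests on RNA markers. Mitosis-rich cells were also deeper in RNA, as given above, and the part of depth in these antibody differences was not tested.

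In early granulocyte-like cells (cluster 4, 617, 1128, 416 and 219 cells) both lists were lower in Mll4SI. The summed mitosis level was 2118, 2275, 1743 and 2149 CPM, at log2 ratios to control of 0.10 [0.08 to 0.12], -0.28 [-0.31 to -0.25] and 0.02 [-0.01 to 0.05]. The summed DNA replication level was 2589, 2825, 2065 and 2224 CPM, at ratios to control of 0.13 [0.11 to 0.14], -0.33 [-0.35 to -0.30] and -0.22 [-0.25 to -0.19]. Mll4SI was the lowest library and Mll3SI the highest for both lists. Late granulocyte markers summed to 6063, 7491, 20273 and 12533 CPM in these cells, highest in Mll4SI, and their part in the result was not tested. Below 0 lay 11, 20 and 18 of the 20 DNA replication genes that passed the minimum, with medians of -0.02, -0.31 and -0.19, and 9, 21 and 13 of the 23 mitosis genes, with medians of 0.06, -0.31 and -0.03. The medians over all 7867 genes were -0.03, -0.04 and -0.04, and 57.2%, 57.8% and 60.3% of them lay below 0.

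Past the fold in early granulocyte-like cells were Pclaf and Top2a, both lower in Mll4SI. All genes there had 0.47%, 2.62% and 1.7% higher past the fold and 0.737%, 2.12% and 1.21% lower. Pclaf stood at 213, 256, 131 and 197 CPM (-0.70 [-0.80 to -0.60]) and Top2a at 276, 279.98, 192 and 269 CPM (-0.52 [-0.61 to -0.44]). Both had Mll4SI as their lowest library by a wide gap. Nusap1 and Ube2c in Mll3/4SI lay at 0.48 and 0.31, and Rrm2 and Dut in Mll3SI at 0.48 and 0.29. After thinning, at least 3 mitosis UMIs were held by 67.6%, 69.9%, 50.1% and 58.4% of the cells and at least 5 DNA replication UMIs by 74.6%, 80.3%, 60.5% and 64.4%.

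Late granulocyte-like cells (3491, 3880, 7298 and 3468) fell into 10 clusters that the libraries filled unequally. Clusters 0 and 8 came to 97.1% and 94.6% from Mll4SI, clusters 10, 13 and 21 to 99.2%, 85.7% and 100% from Mll3/4SI, and most control and Mll3SI cells lay in clusters 1, 3 and 6. The clusters differed in cycling: in control the mitosis level was 8345 CPM in cluster 1 and 1219 CPM in cluster 5, and in Mll4SI it was 7094 CPM in cluster 0 and 159.9 CPM in cluster 8. Over the whole class the mitosis level was 6511, 6828, 4918 and 5509.8 CPM, at log2 ratios to control of 0.07 [0.06 to 0.08], -0.40 [-0.41 to -0.40] and -0.24 [-0.25 to -0.23], and the DNA replication level was 2157, 2472, 1684 and 2102 CPM, at ratios to control of 0.20 [0.19 to 0.21], -0.36 [-0.37 to -0.35] and -0.04 [-0.05 to -0.03]. All 23 mitosis genes lay below 0 in Mll4SI and in Mll3/4SI, as did 55.5% and 62.9% of all genes. The share of cells with no mitosis UMI after thinning was 3.72%, 2.08%, 26.9% and 8.17%, highest in Mll4SI, and the share with at least 10 was 80.2%, 85.03%, 50.2% and 72.8%.

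Past the fold over the class were 4 mitosis genes and 1 DNA replication gene, all lower in Mll4SI. For comparison, 0.778%, 2.39% and 2.15% of all genes passing the minimum were higher past the fold and 1.04%, 3.47% and 3.02% lower. Bub1, a kinase of the spindle checkpoint, stood at 75.9, 81.96, 52.3 and 63.4 CPM. Plk1, a kinase of mitotic entry and exit, stood at 107, 105, 75.5 and 88.3 CPM and Top2a at 842, 835, 595 and 771 CPM. Nusap1 (317, 318, 223 and 276 CPM) and Uhrf1 (65.1, 61.4, 44.6 and 58.98 CPM) were the others. In each of the 5 genes Mll4SI was the lowest library.

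Clusters 3, 5 and 6 were the late granulocyte-like clusters with at least 70 cells in every library, and Mll4SI did not stand in the same place in all of them. In cluster 6 (533, 1086, 221 and 330 cells) the mitosis level was 4617, 5324, 2779 and 4067 CPM and the DNA replication level 2941, 3158, 2984 and 2504 CPM. There 20 of 23 mitosis genes were lower past the fold in Mll4SI, with a median of -0.75. Nusap1 stood at 219.7, 255, 102 and 202 CPM (-1.103 [-1.29 to -0.94]), with Mll4SI far below the others. In the same cells 4 DNA replication genes were higher past the fold. They were E2f1 (0.73), Mcm6 (0.66), Mcm2 (0.57) and Mcm4 (0.53), and Pclaf was lower (-0.51). In Mll3SI, Cdc6 was lower (-0.62), and no member was past the fold in Mll3/4SI. All genes there had 0.779%, 6.17% and 2.49% higher past the fold and 0.966%, 6.85% and 1.54% lower.

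Cluster 3 (997, 973, 70 and 558 cells) held few Mll4SI cells. Its mitosis level was 5542, 5876, 4668 and 4889 CPM and its DNA replication level 3836, 3879, 4511 and 3836 CPM. In Mll4SI, 6 mitosis genes were lower past the fold, led by Kif20a (-0.93 [-1.73 to -0.29]). There 7 DNA replication genes were higher past it, led by Ccne2 (0.73 [0.49 to 0.98]). The mitosis genes lay below 0 in 22 of 23 in Mll3/4SI, against 46.7% of all genes, and there Ube2c (-0.52) was past the fold. For comparison, 0.814%, 6.84% and 2.31% of all genes passing the minimum were higher past the fold and 0.914%, 7.68% and 1.78% lower.

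Cluster 5 (271, 155, 1637 and 189 cells), where Mll4SI had the most cells of these 3 clusters, held less of both lists and went the other way in Mll4SI. Its mitosis level was 1219, 1600.4, 1391 and 1469.99 CPM and its DNA replication level 539, 455, 476 and 396 CPM, so that control was the lowest library for mitosis and the highest for DNA replication. In Mll4SI the log2 ratio was 0.19 [0.14 to 0.24] for mitosis and -0.18 [-0.26 to -0.10] for DNA replication. All 23 mitosis genes and 16 of 21 DNA replication genes passed the minimum there. Higher past the fold were 9, 6 and 7 mitosis genes in Mll3SI, Mll4SI and Mll3/4SI, and lower past it were 6, 2 and 6 DNA replication genes and, in Mll3/4SI, the mitosis gene Bub1. All genes there had 5.73%, 3.34% and 5.07% higher past the fold and 6.5%, 5.59% and 6.47% lower. Ube2c stood at 92.4, 211, 152 and 154 CPM (1.18, 0.72 and 0.73), with control the lowest library, and Mcm2 at 22.4, 8.34, 15.5 and 13.7 CPM (-1.32, -0.50 and -0.67), with control the highest.

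Granulocyte-like and monocyte-like cells together (granulocyte-monocyte-like, 4889, 6137, 8672 and 3996 cells) carry the unequal clusters named above. The summed mitosis level was 4822, 4703, 4215 and 4841 CPM, at log2 ratios to control of -0.04 [-0.04 to -0.03], -0.19 [-0.20 to -0.19] and 0.01 [-0.00057 to 0.01], and the DNA replication level was 2466, 2805, 1955 and 2228 CPM, at ratios to control of 0.19 [0.18 to 0.19], -0.34 [-0.34 to -0.33] and -0.15 [-0.16 to -0.14]. DNA replication was highest in Mll3SI and lowest in Mll4SI. Without the clusters that came to over 80% from 1 library, a choice made after the clusters had been seen, the mitosis ratio was -1.17 in Mll4SI and -0.35 in Mll3/4SI, and the DNA replication ratio was -0.28 and 0.09. All 44 members passed the minimum, and the medians were -0.08, -0.20 and 0.02 for mitosis and 0.10, -0.39 and -0.19 for DNA replication, beside 0.02, -0.09 and -0.13 over all 7680 genes. Below 0 lay 5, 21 and 16 of the 21 DNA replication genes, where 46.3%, 64.5% and 74.2% of all genes lay below 0, so the Mll3/4SI count is near that of all genes. Cdt1 (44.3, 46.1, 30.4 and 31.9 CPM) was lower past the fold in Mll4SI (-0.53 [-0.61 to -0.47]) and Gins2 (31.9, 37.98, 22.8 and 22.1 CPM) in Mll3/4SI (-0.51 [-0.61 to -0.44]), and no other member was past it in these cells. For comparison, 0.794%, 2.79% and 1.69% of all genes passing the minimum were higher past the fold and 1.29%, 6.33% and 9.99% lower.

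Among the DNA replication genes counted most in granulocyte-monocyte-like cells, Dut stood at 378, 519.6, 274 and 279.6 CPM, at ratios to control of 0.46, -0.46 and -0.43. Pclaf stood at 437, 499, 373 and 447 CPM (0.19, -0.23 and 0.03) and Rrm2 at 208, 265, 188 and 229 CPM (0.34, -0.15 and 0.14). Mll3SI was the highest library for all 3 genes. Ccne1, counted least, was nearly level at 17.8, 17.8, 16.1 and 19.3 CPM. Among the mitosis genes, Top2a stood at 639.7, 597, 519.9 and 685 CPM (-0.10, -0.30 and 0.10), Mki67 at 514, 418, 439 and 529.6 CPM (-0.30, -0.23 and 0.04) and Ube2c at 532, 577, 497 and 512 CPM (0.12, -0.10 and -0.06). Kif20a, counted least, stood at 40.03, 36.9, 35.1 and 40.6 CPM. Mll4SI was the lowest library for Top2a, Ube2c and Kif20a, and Mll3SI for Mki67.

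Of the other lists in granulocyte-monocyte-like cells, Pttg1 stood at 81.9, 174, 150.02 and 161 CPM, again with control below the rest (1.08, 0.87 and 0.97). Ccnd2, a G1 cyclin, stood at 40.01, 44.6, 21.9 and 16.4 CPM, with -0.84 in Mll4SI and -1.23 in Mll3/4SI. Ung, which removes uracil from DNA, stood at 26.3, 35.1, 18.8 and 13.2 CPM (-0.94 [-1.099 to -0.89] in Mll3/4SI). Myc, a factor of growth and S-phase entry, stood at 55.2, 82.3, 40.7 and 28.4 CPM, past the fold higher in Mll3SI (0.57) and lower in Mll3/4SI (-0.94). Of the 59 other DNA replication genes that passed the minimum, 14, 59 and 53 lay below 0, and of the 54 other mitosis genes 41, 51 and 22. These too are to be read against 46.3%, 64.5% and 74.2% of all genes.

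In monocyte-like cells (cluster 2, 781, 1129, 958 and 309 cells) no member was past the fold. All genes there had 0.439%, 1.78% and 1.47% higher past the fold and 0.561%, 1.46% and 0.914% lower. The mitosis level was 2471, 2675, 2473 and 2253 CPM and the DNA replication level 3153, 3429, 2919.6 and 3024 CPM, with Mll3SI the highest library for both. In Mll3/4SI 20 of 23 mitosis genes lay below 0, with Ube2c at -0.45 [-0.54 to -0.36] and Cdc20 at -0.43 [-0.57 to -0.30], while Top2a was at 0.03 [-0.03 to 0.08]. In Mll4SI 19 of 21 DNA replication genes lay below 0, led by Pcna at -0.23 [-0.29 to -0.18]. Of all genes there, 49.8%, 56.7% and 60.98% lay below 0. At least 5 DNA replication UMIs were held by 84.9%, 86.999%, 77.5% and 81.9% of the thinned cells.

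Erythroid-like cells (328, 290, 160 and 105 cells) went the other way for mitosis in Mll3/4SI. The mitosis level was 3148, 3237, 3291 and 4142 CPM, at log2 ratios to control of 0.04 [0.01 to 0.07], 0.06 [0.03 to 0.10] and 0.40 [0.36 to 0.43], and the DNA replication level was 2755, 2782, 2569 and 2526 CPM, at ratios to control of 0.01 [-0.02 to 0.05], -0.10 [-0.14 to -0.06] and -0.13 [-0.17 to -0.08]. Mll3/4SI was thus the highest library for mitosis and the lowest for DNA replication. All 23 mitosis genes lay above 0 there, with a median of 0.39 beside -0.07 over all genes, of which 60.7% lay below 0, and 6 were higher past the fold. They were Nusap1 (112, 109, 126 and 179.9 CPM; 0.68 [0.51 to 0.86]), Hmmr (0.57), Kif23 (0.57), Ube2c (0.57), Cenpf (0.56) and Aurka (0.54). Uhrf1 was lower past it (-0.52 [-0.79 to -0.27]). No member was past it in Mll3SI or Mll4SI. For comparison, 1.55%, 5.03% and 3.47% of all genes passing the minimum were higher past the fold and 1.7%, 2.95% and 6.08% lower. At least 3 mitosis UMIs were held by 49.2% [43.5 to 54.9], 50.4% [44.3 to 56.4], 47.3% [39.1 to 55.6] and 65.2% [54.3 to 74.96] of the thinned cells. Mll3/4SI rested on 105 cells, the fewest of the 4 libraries, and late granulocyte markers summed to 2414, 3181, 16723 and 1340.2 CPM.

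The rarer classes rested on fewer cells. B-lymphoid-like cells (64, 188, 40 and 38 cells) had mitosis levels of 7182, 7616, 8013 and 8657 CPM and DNA replication levels of 5218, 5310.2, 4883 and 4636 CPM, so that Mll3/4SI was the highest library for mitosis and the lowest for DNA replication here too. Basophil/mast-like cells (162, 122, 116 and 48 cells) had mitosis levels of 2187, 2027, 2415 and 2700 CPM and DNA replication levels of 2167, 2352, 2018 and 2213 CPM, and Mll3/4SI was the highest library for mitosis. In the unnamed clusters 14 and 9, made up almost wholly of Mll3/4SI cells, the mitosis level was 3005 and 2119.7 CPM and the DNA replication level 2142 and 2109.7 CPM. Both DNA replication values lay below those of HSC/MPP-like cells in all 4 libraries.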

How the data were processed

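Single-cell RNA and antibody libraries (10x Genomics 3′ chemistry, version 3.1 per the labels' protocols) of 4 groups were used, 1 library each, grouped by the sample titles. The authors deposited UMI counts for each gene or antibody in each barcode, for which Cell Ranger 7.1.0 and mm10 are named per the submitters' processing notes. The annotation release and cell-calling settings were not given in the sources used here. Of the 57 other mitosis genes listed, H2az1 was not matched by symbol.

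Everything else was computed from those counts in Python 3.11.15, using scanpy 1.11.5 (with scikit-learn 1.9.0, leidenalg 0.10.2 and igraph 0.11.9), scipy 1.17.1 and pandas 2.3.3, and plots were made in matplotlib 3.10.9. A cell needed 500 genes and 1000 gene UMIs, with no more than 10% of UMIs mitochondrial. Scrublet was run per library, and the highest-scoring 0.8% per 1000 cells, 409 to 1001 cells a library, were taken out as doublets. The libraries were clustered jointly on 2000 variable genes, with 30 principal components, 15 neighbours and Leiden resolution 1. Left out beforehand were 1274 genes (members, other lists, markers, histone, mitochondrial, ribosomal and haemoglobin genes, genes of the Y chromosome, Xist and Tsix). Genes correlated with the members may remain among the variable genes. Other X-linked genes were not left out as such, so differences in sex may have shaped clusters, which was not tested. A cluster took the name of a class with at least 3 markers at a log2 fold of at least 1 and 2 or more such markers ahead of any other class, if no other class had as many markers among its top 10 genes. This strictness, the hashtag thresholds (128 and 323 UMIs) and the threshold of 10 member UMIs were chosen after the data had been seen. Because classes were named anew, they need not match the study's own.

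UMIs were summed per class and library and given as CPM. Intervals at 95% are exact Poisson for levels, exact conditional binomial for ratios, Clopper-Pearson for shares, and combined from the latter for ratios of shares. In HSC/MPP-like and granulocyte-monocyte-like cells full values are given for members past the fold. The same holds there for the 3 members of each role with the highest mean CPM and the lowest one, and for the largest ratios of the other lists. In other cells some members past the fold are given as ratios alone and some are only counted. The members and lists were chosen with earlier results of these data known. Alternatives covered scaling, doublets, filters, clustering, class assignment, hashtags and thresholds. Single-gene ratios were tested on simulated sums of HSC/MPP-like and granulocyte-monocyte-like cells with known changes and counting error only. Clustering, naming, thinning, intervals and antibody values were not tested in this way.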

Additional observations from a re-analysis of the deposited data

Results flagged for a closer look

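Within 1 library, some cell classes had a mitosis level above control and others a level below it. In Mll3SI the summed mitosis genes gave a log2 ratio to control of 0.1143 in monocyte-like cells and -0.1095 in basophil/mast-like cells. In Mll4SI the ratio was 0.158 in B-lymphoid-like and -0.4049 in late granulocyte-like cells. In Mll3/4SI it was 0.3959 in erythroid-like and -0.241 in late granulocyte-like cells. These were the highest and the lowest class of each library, chosen for their size, and the difference between the classes was not tested, since each rests on 1 library per group. The late granulocyte-like values include clusters drawn mostly from Mll4SI or from Mll3/4SI.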

How the results depend on the processing

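In HSC/MPP-like cells the DNA replication genes of Mll4SI and Mll3/4SI were below control under every setting tried, between -0.28 and -0.23 and between -0.35 and -0.18 on the log2 scale. The class did not hold the same cells under every setting. At Leiden resolution 2 a cluster led by Fut8 and Slco3a1, as cluster 7 was at resolution 1, had 4 HSC/MPP and 4 early granulocyte markers. It stayed unnamed and was left out of the class there. The direction of the HSC/MPP-like mitosis ratios, of the Mll3SI DNA replication ratio there, and of the Mll3/4SI ratios and the Mll3SI mitosis ratio in granulocyte-monocyte-like cells depended on the setting. The 12 list medians and the 12 counts past the fold stayed the same under another minimum CPM or none, and stricter filters on cells moved no sum. No paired analysis was possible because each group had 1 library. With 1 library per group, depth limits counting error only, and the spread between animals was not measured.

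The log2 ratios to control that moved by more than their counting interval or changed direction follow, and in each case the cause was not tested. With median-of-ratios scaling, HSC/MPP-like cells had DNA replication at -0.25 (Mll4SI) and -0.18 (Mll3/4SI) and mitosis at -0.022 (Mll4SI) and 0.0063 (Mll3/4SI), and granulocyte-monocyte-like cells had DNA replication at 0.18 (Mll3SI), -0.24 (Mll4SI) and -0.012 (Mll3/4SI) and mitosis at -0.046 (Mll3SI), -0.097 (Mll4SI) and 0.14 (Mll3/4SI). Without doublet removal, HSC/MPP-like cells had mitosis at 0.0902 (Mll3SI) and 0.0074 (Mll4SI), and granulocyte-monocyte-like cells had DNA replication at -0.32 (Mll4SI). With cells above both hashtag thresholds removed, HSC/MPP-like cells had DNA replication at -0.26 (Mll4SI) and mitosis at -0.00496 (Mll3SI), -0.099 (Mll4SI) and -0.016 (Mll3/4SI), and granulocyte-monocyte-like cells had mitosis at -0.045 (Mll3SI) and -0.21 (Mll4SI). At Leiden resolution 2, HSC/MPP-like cells had DNA replication at -0.083 (Mll3SI) and -0.27 (Mll3/4SI) and mitosis at 0.18 (Mll4SI) and 0.029 (Mll3/4SI), and granulocyte-monocyte-like cells had DNA replication at -0.14 (Mll3/4SI) and mitosis at -0.049 (Mll3SI), -0.18 (Mll4SI) and -0.0799 (Mll3/4SI). With the class of the nearest control cells, HSC/MPP-like cells had DNA replication at -0.34 (Mll3/4SI) and mitosis at -0.022 (Mll4SI) and -0.12 (Mll3/4SI), and granulocyte-monocyte-like cells had DNA replication at -0.16 (Mll3/4SI) and mitosis at -0.203 (Mll4SI) and -0.14 (Mll3/4SI). As a mean over cells, HSC/MPP-like cells had DNA replication at -0.043 (Mll3SI) and mitosis at -0.028 (Mll3SI), -0.075 (Mll4SI) and -0.101 (Mll3/4SI), and granulocyte-monocyte-like cells had DNA replication at 0.197 (Mll3SI), -0.55 (Mll4SI) and -0.13 (Mll3/4SI) and mitosis at -0.0017 (Mll3SI), -0.47 (Mll4SI) and -0.076 (Mll3/4SI). In Hashtag1 cells, HSC/MPP-like cells had DNA replication at 0.010002 (Mll3SI) and -0.23 (Mll4SI) and mitosis at 0.22 (Mll3SI), -0.028 (Mll4SI) and 0.18 (Mll3/4SI), and granulocyte-monocyte-like cells had DNA replication at 0.23 (Mll3SI), -0.31 (Mll4SI) and -0.083 (Mll3/4SI) and mitosis at -0.12 (Mll3SI), -0.296 (Mll4SI) and -0.051 (Mll3/4SI). In Hashtag2 cells, HSC/MPP-like cells had mitosis at -0.2003 (Mll3SI), -0.16 (Mll4SI) and -0.37 (Mll3/4SI), and granulocyte-monocyte-like cells had DNA replication at 0.14 (Mll3SI), -0.37 (Mll4SI) and -0.23 (Mll3/4SI) and mitosis at 0.022 (Mll3SI), -0.12 (Mll4SI) and 0.068 (Mll3/4SI). Median-of-ratios scaling raised the Mll3/4SI ratios of all genes in granulocyte-monocyte-like cells by 0.13. Settings chosen after seeing the data moved further values. With cluster 14 counted as HSC/MPP-like, HSC/MPP-like cells had DNA replication at -0.35 (Mll3/4SI) and mitosis at 0.059 (Mll3/4SI). Without clusters mostly of 1 library, granulocyte-monocyte-like cells had DNA replication at -0.28 (Mll4SI) and 0.089 (Mll3/4SI) and mitosis at -1.17 (Mll4SI) and -0.35 (Mll3/4SI).

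The ratios of cell shares that moved follow. At 2000 UMIs per cell, HSC/MPP-like cells had DNA replication at 0.7904 (Mll4SI), and granulocyte-monocyte-like cells had mitosis at 1.002 (Mll3/4SI). At 5000 UMIs per cell, HSC/MPP-like cells had DNA replication at 0.942 (Mll4SI) and 0.938 (Mll3/4SI), and granulocyte-monocyte-like cells had DNA replication at 1.09 (Mll3SI) and mitosis at 0.721 (Mll4SI) and 0.959 (Mll3/4SI). At 2 mitosis or 3 replication UMIs, HSC/MPP-like cells had DNA replication at 0.919 (Mll4SI), and granulocyte-monocyte-like cells had DNA replication at 1.101 (Mll3SI) and mitosis at 0.717 (Mll4SI). At 5 mitosis or 8 replication UMIs, HSC/MPP-like cells had DNA replication at 0.7603 (Mll4SI), and granulocyte-monocyte-like cells had DNA replication at 1.22 (Mll3SI) and mitosis at 1.01 (Mll3/4SI). At a threshold chosen after seeing the data the following moved. At 10 UMIs, HSC/MPP-like cells had DNA replication at 0.764 (Mll4SI) and mitosis at 0.989 (Mll4SI), and granulocyte-monocyte-like cells had DNA replication at 1.25 (Mll3SI) and mitosis at 0.989 (Mll3SI) and 1.04 (Mll3/4SI).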
